A study of Mus musculus with 7 samples.

Results

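Transcripts of 8 receptors by which granulocytes and macrophages sense chemoattractants and metabolites were followed in HSPCs (haematopoietic stem and progenitor cells) of the mouse, the mixed blood-forming cells from which the myeloid lineages grow. The 8 genes, Fpr1, Fpr2, Ltb4r1, Ptafr, Ffar2, Hcar2, P2rx7 and P2ry2, were listed by name as receptors of formyl peptides, lipids, purines and short-chain fatty acids. They and the related gene lists below were chosen with earlier results of these data known. Shares of all genes set beside them therefore describe the lists and are no independent test. All 8 were found among the 34305 rows of the deposited table. There were 3 libraries with MN1 overexpression, 3 with overexpression of MN1pQdel, and 1 with none (noTD). MN1 is a transcriptional co-regulator and an oncogene of acute myeloid leukaemia, MN1pQdel is MN1 with its polyglutamine stretch removed, and the noTD cells were untransduced. Cells of every group grew in medium with IL-3, IL-6 at 10 ng/mL and stem cell factor at 20 ng/mL, and RNA was taken after 7 to 9 days in culture, with no day given for any 1 library. The untransduced library is not an empty-vector control, so transduction and sorting cannot be told apart from the protein's presence in comparisons with it. The sources used here do not give the strain, age or sex of the mice. The libraries are described as independent samples, but since nothing says that samples came from separate animals, p-values measure only the spread between these samples.

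Granulocytes find sites of infection by receptors coupled to Gi proteins. Formyl peptides released by bacteria and damaged mitochondria bind the FPR family, leukotriene B4 binds the product of Ltb4r1, and platelet-activating factor binds that of Ptafr. The receptors release G protein beta-gamma subunits, which activate phosphoinositide 3-kinase gamma and the small GTPase Rac2 and so direct movement and the oxidative burst. Ffar2 and Hcar2 encode receptors of metabolites, acetate and other short-chain fatty acids for the first and beta-hydroxybutyrate, butyrate and niacin for the second. Extracellular ATP opens the ion channel encoded by P2rx7, which is not a G protein-coupled receptor, and ATP and UTP bind the receptor encoded by P2ry2. Most of these genes are switched on late in granulocyte or macrophage maturation.

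Totals ran from 38210660 to 67728658 counts per library. Mn1 lay at 287 to 314 CPM (counts scaled to a common library total) in MN1, at 404 to 728 CPM in MN1pQdel and at 33.6 CPM in the untransduced library, so the transduced groups also differed in Mn1 level. The 10 stem and progenitor markers summed to 1121 to 1529 CPM in MN1, 600 to 1141 CPM in MN1pQdel and 1134 CPM untransduced, with 5 of 10 higher and 0 lower in MN1. The 12 neutrophil markers summed to 4369 to 7993 CPM in MN1, 26683 to 37109 CPM in MN1pQdel and 38714 CPM untransduced. All 12 were lower in MN1. Some markers of other myeloid cells were lower in MN1 too. They included 6 of 12 monocyte or macrophage markers (524 to 569 CPM summed in MN1, 1011 to 1177 CPM in MN1pQdel, 1331 CPM untransduced). Also lower were 6 of 8 eosinophil markers (13.1 to 21.1 CPM, 234 to 3561 CPM and 3727 CPM). So were 4 of 9 mast cell markers (1496 to 3482 CPM, 2508 to 17869 CPM and 15383 CPM), whose sums overlapped. Of 5 basophil markers, 3 were lower (403 to 849 CPM, 1220 to 3324 CPM and 3009 CPM). Over all genes tested, 11.0% were lower and 5.99% higher in MN1. Promyelocyte sums overlapped (1976 to 4375 CPM in MN1, 1146 to 7952 CPM in MN1pQdel), with 0 of 5 markers called. Dendritic cell markers summed higher in MN1 (95.4 to 131 CPM) than in MN1pQdel (29.8 to 48.9 CPM). That higher sum rested on Flt3, which is also among the stem and progenitor markers. Flt3 stood at 64.4, 111 and 87.35 CPM in MN1 and at 1.29, 7.00 and 0.248 CPM in MN1pQdel. Of 5 dendritic cell markers tested, 1 was higher and 1 lower. The part of these cell types in the receptor results was not tested. MN1pQdel replicate 2 stood apart from its group, with 8 eosinophil markers summing to 233.9 CPM against 3333 and 3561 CPM, and 9 mast cell markers summing to 2508 CPM against 14827 and 17869 CPM. Its 5 promyelocyte markers summed higher, to 7952 CPM against 2254 and 1146 CPM. In bulk RNA, fewer cells of a type and less RNA per cell cannot be told apart.

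Of the receptor genes, 7 had 1 or more promoter entries in the RefSeq set for GRCm38.p6, with 12 entries in all, each of 250 bases before the gene start and 50 after it. There is no entry for Hcar2. A set of 5 is shown because the data bear on them: Fpr1 and Fpr2 are neighbours that were both lower in MN1, Ffar2 and Ltb4r1 were lower in every fit run here, and P2ry2 did not pass the test. For Ffar2 and P2ry2, which have several starts, the entry with the most GENCODE transcript starts within 50 bases is given. Each sequence reads 5′ to 3′ on the strand of its gene in lower case. Capitals mark matches, on either strand, to 3 patterns. C/EBP factors, which act in granulocyte maturation, were searched as TTNNGCAA. The core bound by the myeloid factor PU.1 was searched as GAGGAA. A site of GATA factors, which act in eosinophils and mast cells among others, was searched as AGATAA. No match overlaps another in the windows shown.
Fpr1, chr17:17883890-17884189, minus strand: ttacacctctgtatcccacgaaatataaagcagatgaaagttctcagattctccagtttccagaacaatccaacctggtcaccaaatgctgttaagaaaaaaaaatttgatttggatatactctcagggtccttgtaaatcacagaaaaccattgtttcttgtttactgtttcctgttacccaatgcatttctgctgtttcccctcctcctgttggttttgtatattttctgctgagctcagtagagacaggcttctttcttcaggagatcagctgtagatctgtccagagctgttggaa
Fpr2, chr17:17887574-17887873, plus strand: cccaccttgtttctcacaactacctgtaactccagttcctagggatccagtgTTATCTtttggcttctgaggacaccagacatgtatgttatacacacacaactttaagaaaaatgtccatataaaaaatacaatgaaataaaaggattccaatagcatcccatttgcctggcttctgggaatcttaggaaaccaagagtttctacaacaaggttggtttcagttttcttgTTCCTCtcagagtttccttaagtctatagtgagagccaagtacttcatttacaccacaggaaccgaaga
Ffar2, chr7:30821090-30821389, minus strand: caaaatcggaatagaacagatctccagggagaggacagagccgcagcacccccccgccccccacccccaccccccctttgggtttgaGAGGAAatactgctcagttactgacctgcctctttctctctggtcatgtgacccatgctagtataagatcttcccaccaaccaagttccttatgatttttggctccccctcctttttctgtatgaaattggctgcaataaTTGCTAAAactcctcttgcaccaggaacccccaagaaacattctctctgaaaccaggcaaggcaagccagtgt
Ltb4r1, chr14:55765712-55766011, plus strand: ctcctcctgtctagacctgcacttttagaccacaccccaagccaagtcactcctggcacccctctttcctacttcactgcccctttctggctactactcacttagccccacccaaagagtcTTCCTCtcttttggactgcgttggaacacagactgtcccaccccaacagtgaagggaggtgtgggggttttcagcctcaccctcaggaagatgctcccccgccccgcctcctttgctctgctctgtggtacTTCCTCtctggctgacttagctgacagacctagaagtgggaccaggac
P2ry2, chr7:101011949-101012248, minus strand: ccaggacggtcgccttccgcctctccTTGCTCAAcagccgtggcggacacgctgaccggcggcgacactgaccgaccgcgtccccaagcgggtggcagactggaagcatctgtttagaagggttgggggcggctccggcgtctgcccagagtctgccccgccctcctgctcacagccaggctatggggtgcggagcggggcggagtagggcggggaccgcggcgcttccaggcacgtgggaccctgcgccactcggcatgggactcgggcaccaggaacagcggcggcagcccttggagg

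The starts of Fpr1 and Fpr2 lay 3885 bases apart and pointed away from each other. The Fpr1 window held none of the patterns, while the Fpr2 window held 1 GAGGAA match at -19 and 1 AGATAA match at -198 from the start. The Ffar2 window held 1 TTNNGCAA match at -23 and 1 GAGGAA match at -163, and the Ltb4r1 window held GAGGAA matches at -129 and 2. The P2ry2 window held 1 TTNNGCAA match at -224. Of 32851 promoter windows of 300 bases, 10.8% held TTNNGCAA, 28.3% GAGGAA and 11.2% AGATAA. No pattern was present in all of the windows shown, and these matches are letters in a sequence, not measured binding.

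All 8 receptor genes passed the filter on low counts and entered the test. In MN1 against MN1pQdel, 6 of the 8 were lower (Fpr1, Fpr2, Ltb4r1, Ptafr, Ffar2 and Hcar2) by 2.49-fold to 6.74-fold, and 0 were higher. P2rx7 and P2ry2 did not pass. Of 14808 genes tested, 11.0% were lower and 5.99% higher in MN1, which is 1627 and 887 genes. The calls rest on an adjusted p below 0.05 from edgeR's quasi-likelihood test with Benjamini-Hochberg adjustment. The median log2 fold change was -1.81 over the 8 genes and -0.01 over all genes tested. The same 6 genes had every MN1 library below every MN1pQdel library, which held for 21.7% of genes tested. Blocking on replicate number called 2518 genes (17.0%) lower and 2021 higher, and the 8 receptor genes kept their calls. Scaling by library totals raised the median of all genes from -0.01 to 0.19 and the share of higher genes among all calls from 35.3% to 61.5%. The same 6 receptor genes still passed as lower under it. Without MN1 replicate 2 the count fell to 3, as Fpr1, Ptafr and Hcar2 missed the threshold. In that fit 401 of 15274 genes tested were lower. Without MN1pQdel replicate 2 the count was 7, and 3246 of 15252 genes tested were lower.

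**Figure D1:**
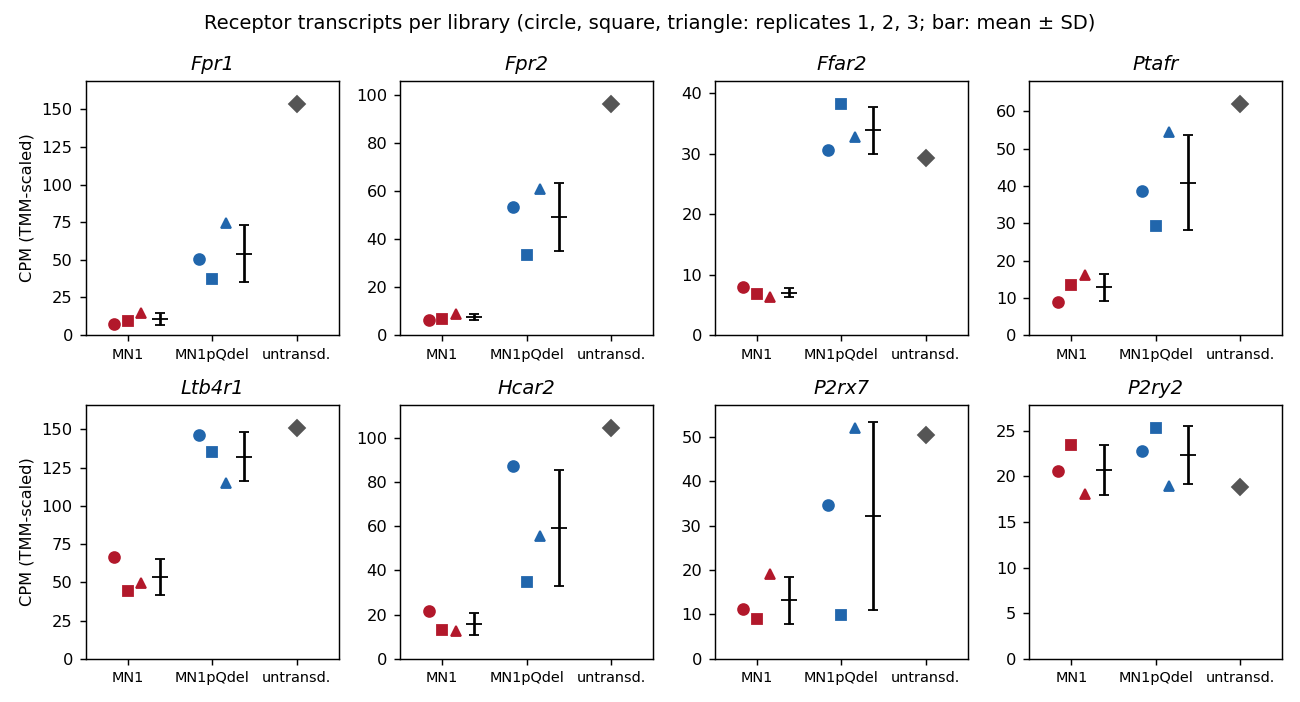
TMM-scaled CPM of the 8 receptor genes (vertical axis, linear, from 0) in each library of MN1, MN1pQdel and the untransduced cells. Circles, squares and triangles are replicates 1, 2 and 3, and bars give the mean ± SD of 3 libraries. In 6 panels the MN1 points lie below all MN1pQdel points, P2rx7 overlaps because of MN1pQdel replicate 2 at 9.96 CPM, and P2ry2 is level.

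Fpr1 encodes the high-affinity formyl peptide receptor (chromosome 17, 17876471 to 17883940 on GRCm38, minus strand, protein coding). It stood at 7.32, 9.26 and 15.0 CPM in MN1 replicates 1 to 3, at 50.3, 37.3 and 74.7 CPM in MN1pQdel replicates 1 to 3, and at 153 CPM untransduced. The untransduced library was thus more than any transduced library, and the transduced groups did not overlap. The log2 fold change was -2.38 (SE 0.36, edgeR quasi-likelihood, Benjamini-Hochberg adjusted p = 0.0105). Without MN1 replicate 2 the log2 fold change was -2.29, with an edgeR adjusted p of 0.0522, and over the 6 fits that leave out 1 library it ran from -2.71 to -2.07.

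Fpr2 encodes the paralogue that binds formyl peptides more weakly and also annexin A1 and the cathelicidin peptide (chromosome 17, 17887824 to 17893952, plus strand, protein coding). Levels were 6.49, 6.90 and 8.78 CPM in MN1, 53.6, 33.5 and 60.9 CPM in MN1pQdel, and 96.2 CPM untransduced. It had the largest fold change of the 8 genes, with means of 7.39 ± 1.22 CPM in MN1 and 49.3 ± 14.2 CPM in MN1pQdel (SD, n = 3 each). The log2 fold change was -2.75 (SE 0.26, edgeR adjusted p = 0.00517), and it passed in all 15 alternative fits. The ratio of Fpr1 to Fpr2 CPM was 1.13, 1.34 and 1.70 in MN1, 0.939, 1.12 and 1.23 in MN1pQdel and 1.59 untransduced, so the groups overlapped in it, although MN1 was above MN1pQdel within each of the 3 replicate numbers.

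Close copies limit the Fpr2 value. Of the distinct 31-base stretches in GENCODE transcripts of Fpr2, 43.0% also occurred in transcripts of other genes, most of them in Gm5966 (487 of 1295) and fewer in Fpr3. For Fpr1 the share was 1.55%. Fpr3 had 4 counts over the 7 libraries, and no row of the deposited table bore the symbol Gm5966. The estimated counts of Fpr1 and Fpr2 were whole numbers in 6 of 7 libraries each. In the untransduced library they were 5598.7645 and 3511.2355. How far the authors' index held these copies is not stated by the sources at hand, so the separate level of Fpr2 is uncertain.

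Ltb4r1 encodes the high-affinity leukotriene B4 receptor (chromosome 14, 55765962 to 55768494, plus strand, protein coding). Levels were 66.7, 44.7 and 49.5 CPM in MN1, 147, 135 and 115 CPM in MN1pQdel and 151 CPM untransduced. The MN1 libraries lay clearly apart from the rest, while MN1pQdel lay close to the untransduced library. MN1 over MN1pQdel differed by a log2 fold change of -1.31 (SE 0.18, edgeR adjusted p = 0.00877), with adjusted p of at most 0.0480 in 15 alternative fits. Its transcript shared 0 of 1364 stretches of 31 bases with other genes.

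Ptafr encodes the receptor of platelet-activating factor (chromosome 4, 132564067 to 132582683, plus strand, protein coding). It was counted at 8.88, 13.4 and 16.1 CPM in MN1, at 38.8, 29.2 and 54.5 CPM in MN1pQdel and at 61.9 CPM untransduced. The transduced groups did not overlap, but both varied more among replicates than for Ltb4r1. For Ptafr this was a log2 fold change of -1.69 (SE 0.30, edgeR adjusted p = 0.0176). The call did not hold when MN1 replicate 1, 2 or 3 or MN1pQdel replicate 1 was left out, with log2 fold changes of -1.88 to -1.48 and edgeR adjusted p of 0.0509 to 0.0692.

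Ffar2 encodes a receptor of acetate, propionate and butyrate (chromosome 7, 30818348 to 30823775, minus strand, protein coding). It stood at 7.90, 6.85 and 6.32 CPM in MN1, at 30.6, 38.2 and 32.7 CPM in MN1pQdel and at 29.2 CPM untransduced. The libraries within each group lay close together, and the untransduced library sat just under the MN1pQdel range. Ffar2 had a log2 fold change of -2.28 (SE 0.17), with the smallest edgeR adjusted p of the 8 genes (0.00408). It passed in all 15 alternative fits, at log2 fold changes between -2.37 and -2.08.

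Hcar2 encodes the receptor of beta-hydroxybutyrate and niacin (chromosome 5, 123863570 to 123865499, minus strand, protein coding). It was counted at 21.6, 12.9 and 12.7 CPM in MN1, 87.1, 35.0 and 55.5 CPM in MN1pQdel and 105 CPM untransduced. The groups did not overlap, although MN1pQdel spread widely, at 59.2 ± 26.3 CPM (SD, n = 3). Hcar2 had a log2 fold change of -1.92 (SE 0.38, edgeR adjusted p = 0.0226). The call did not hold without MN1 replicate 2 or 3 or MN1pQdel replicate 1 or 3, where log2 fold changes ran from -1.96 to -1.52 and edgeR adjusted p from 0.0559 to 0.0915.

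P2rx7 encodes the ATP-gated channel that opens the way to interleukin-1 release (chromosome 5, 122643911 to 122691432, plus strand, protein coding). It stood at 11.3, 8.94 and 19.2 CPM in MN1, at 34.7, 9.96 and 52.1 CPM in MN1pQdel and at 50.3 CPM untransduced. MN1pQdel replicate 2 fell inside the MN1 range, and the other MN1pQdel libraries lay above it. The log2 fold change was -1.31 (SE 0.59, edgeR adjusted p = 0.151). With the replicate block it was -1.10 (SE 0.33, edgeR adjusted p = 0.0668). Without MN1pQdel replicate 2 it was -1.71 (edgeR adjusted p = 0.0102), and without both number 2 libraries -1.49 (edgeR adjusted p = 0.0277). The eosinophil, mast cell and basophil marker sums were lowest of the MN1pQdel libraries in the same replicate, and their part in this value was not tested.

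P2ry2 encodes a Gq-coupled receptor of ATP and UTP (chromosome 7, 100996568 to 101012866, minus strand, protein coding). Levels were 20.6, 23.4 and 18.1 CPM in MN1, 22.7, 25.3 and 19.0 CPM in MN1pQdel and 18.8 CPM untransduced. The 7 libraries overlapped across the groups. Its log2 fold change was -0.12 (SE 0.17, edgeR adjusted p = 0.628), and with scaling by library totals its sign turned, to 0.07 (edgeR adjusted p = 0.781). A p above the threshold does not show that the groups were equal.

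**Figure D2:**
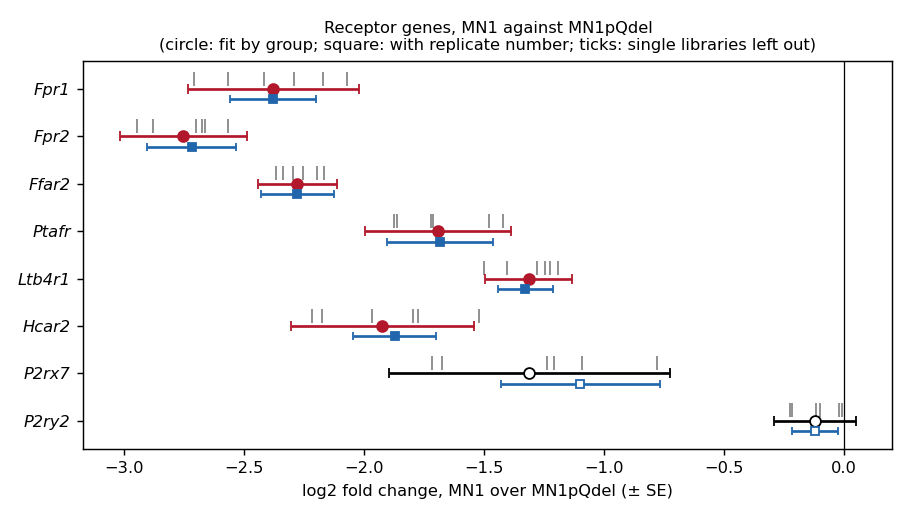
Log2 fold change of MN1 over MN1pQdel (horizontal axis) for each receptor gene, with circles for the fit by group and squares for the fit with the replicate number, each ± SE and filled where the adjusted p was under 0.05. Grey ticks are the 6 fits that leave out 1 library; 6 genes lie between -2.75 and -1.31 with filled circles, and P2rx7 and P2ry2 have open symbols.

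Within each replicate number, MN1 was below MN1pQdel for all 8 genes. How many of all genes tested shared this order was not counted, so it is not shown to be particular to the receptors. For Fpr2, MN1 minus MN1pQdel was -3.04, -2.27 and -2.79 on the log2 CPM scale in numbers 1, 2 and 3, and for Ffar2 it was -1.95, -2.47 and -2.36. For P2rx7 it was -1.62, -0.16 and -1.44, and for P2ry2 it was small, at -0.14, -0.11 and -0.07. In 7 of 8 genes the highest library had the same number in MN1 and in MN1pQdel, against 53.0% of genes tested. The lowest library shared its number in 2 of 8, P2rx7 and P2ry2, against 54.3% of genes tested. Fpr1, Fpr2, Ptafr and P2rx7 were highest in replicate 3 of both groups, Ltb4r1 and Hcar2 in replicate 1, and P2ry2 in replicate 2. MN1pQdel replicate 2 was the lowest of its group for 5 genes (Fpr1, Fpr2, Ptafr, Hcar2 and P2rx7) and the highest for Ffar2 and P2ry2.

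Levels can be set against each other only per length, here as CPM per kilobase of merged exons. In the untransduced library the order was Fpr1 (116), Ltb4r1 (108), Fpr2 (74.2), Hcar2 (54.2), Ptafr (17.0), Ffar2 (10.5), P2rx7 (8.43) and P2ry2 (4.79) in CPM per kilobase. In MN1pQdel, Ltb4r1 led at 94.9 ± 11.6 CPM per kilobase (SD, n = 3), and Fpr1 (40.9 ± 14.3), Fpr2 (38.1 ± 11.0) and Hcar2 (30.7 ± 13.6) followed within each other's spread. Ffar2 (12.1 ± 1.40) and Ptafr (11.2 ± 3.51) came next, followed by P2ry2 (5.69 ± 0.811) and P2rx7, each pair within its spread. In MN1, Ltb4r1 led again at 38.5 ± 8.31 CPM per kilobase. The next there were Hcar2 (8.16 ± 2.64), Fpr1 (7.94 ± 3.00), Fpr2 (5.70 ± 0.944) and P2ry2 (5.27 ± 0.688), whose neighbours in this order did not differ beyond their spread. Ptafr (3.51 ± 1.00), Ffar2 (2.52 ± 0.288) and P2rx7 (2.20 ± 0.902) were lowest in MN1, also in CPM per kilobase. Fpr1 thus moved from the top of the untransduced order to behind Ltb4r1 in both transduced groups, a description of 1 untransduced library.

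Against the untransduced library no test was possible, since that group has 1 library, and the same library served both descriptions. In MN1, 7 of 8 receptor genes were at least 2-fold lower than untransduced on the log2 CPM scale (prior count of 2), a difference seen in 14.9% of genes tested. P2ry2 was within 2-fold. The mean log2 differences were -3.93 for Fpr1, -3.71 for Fpr2, -2.77 for Hcar2, -2.32 for Ptafr, -2.06 for Ffar2, -2.01 for P2rx7 and -1.51 for Ltb4r1, with all 3 MN1 libraries below the untransduced one for each. In MN1pQdel, 2 of 8 were at least 2-fold lower, against 3.08% of genes tested, and 0 were at least 2-fold higher, against 1.56%. These were Fpr1, at -1.56 ± 0.50 (SD, n = 3), and Fpr2, at -1.01 ± 0.45, both on the log2 scale. The Fpr2 value lay at the edge of the 2-fold limit, and the count was 1 without MN1pQdel replicate 2 and 4 without MN1pQdel replicate 1. Ltb4r1 (-0.20), Ffar2 (0.20) and P2ry2 (0.24) lay close to the untransduced level in MN1pQdel, while Ptafr (-0.65) and Hcar2 (-0.92) lay below it in all 3 libraries in log2 difference. P2rx7 lay below it in 2 of 3 libraries, at a mean of -0.94 that was -0.24 without MN1pQdel replicate 2.

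**Figure D3:**
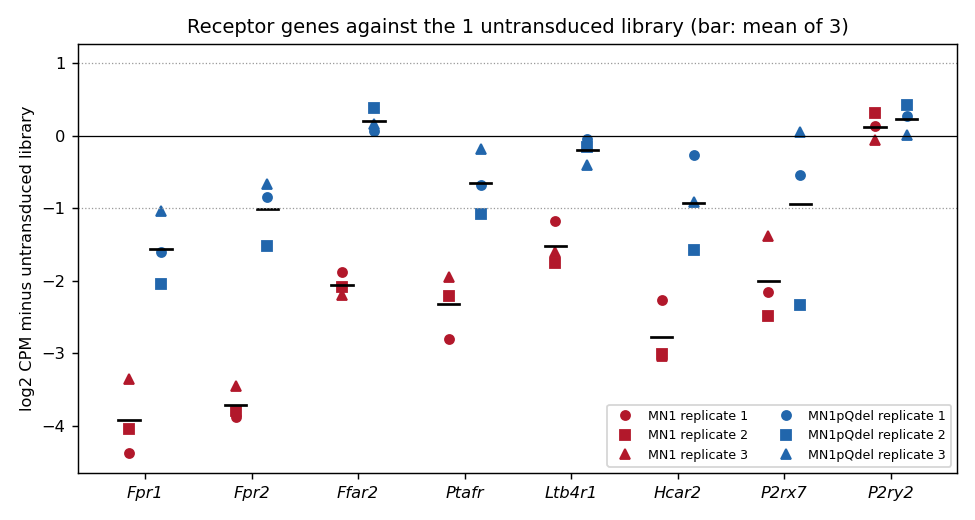
Log2 CPM of each transduced library minus the 1 untransduced library (vertical axis) for the 8 receptor genes, with red for MN1, blue for MN1pQdel, symbols for replicates 1 to 3, bars for means of 3 and dotted lines at 2-fold. MN1 lies below -1 for 7 genes, and in MN1pQdel the means of Fpr1 (-1.56) and Fpr2 (-1.01) lie below it.

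Most of the 12 neutrophil markers belong to late granulocytes. The receptor levels were therefore also expressed per 1000 CPM of the summed markers, a measure chosen after the values were seen. S100a8 and S100a9 were the highest of the 12 in every library. All 12 markers were lower in MN1, so a gene level between the groups must come out higher in MN1 on this scale. Fpr1 then stood at 0.915, 1.43 and 3.42 in MN1, at 1.36, 1.24 and 2.80 in MN1pQdel and at 3.96 untransduced, and the transduced groups overlapped. Ffar2 ran from 0.989 to 1.45 in MN1 and from 0.823 to 1.26 in MN1pQdel on this relative scale, again with overlap. Fpr2, Ptafr, Hcar2 and P2rx7 overlapped too. Within replicate numbers, MN1 was above MN1pQdel in 3 of 3 for Ptafr, Hcar2 and P2rx7, below it in 3 of 3 for Fpr2, and above it in 2 of 3 for Fpr1 and Ffar2. Ltb4r1 and P2ry2 did not overlap: all MN1 libraries lay above all MN1pQdel libraries. P2ry2 was level in CPM, so its higher ratio in MN1 came from the lower marker sum. Ltb4r1 was 2.49-fold lower in MN1 in CPM, a smaller drop than that of the marker sum, so its higher ratio arose likewise. How many of all genes tested lay above in this way was not counted. Ltb4r1 was at 8.86 ± 2.26 in MN1 and 4.24 ± 0.269 in MN1pQdel, and P2ry2 at 3.44 ± 0.794 and 0.721 ± 0.113, per 1000 CPM of markers (SD, n = 3 each). An exact permutation test of 3 against 3 cannot go below p = 0.1, so these ratios carry no test.

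**Figure D4:**
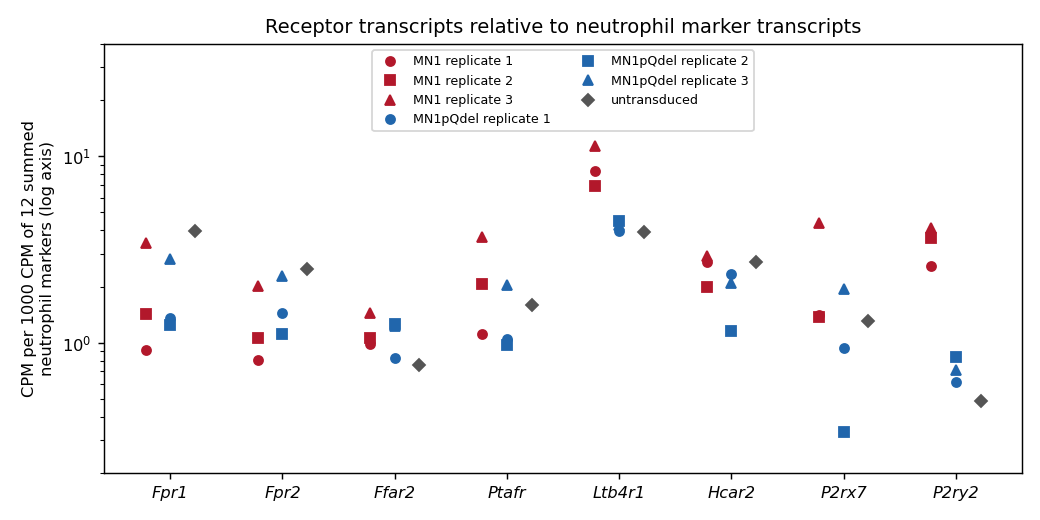
CPM of each receptor gene per 1000 CPM of 12 summed neutrophil markers (vertical axis, logarithmic) by library, with red for MN1, blue for MN1pQdel and grey diamonds for the untransduced library. The MN1 and MN1pQdel points overlap for 6 genes, and the MN1 points of Ltb4r1 and P2ry2 lie above those of MN1pQdel.

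Of 25 further chemoattractant receptor genes 17 were tested, and 7 were lower and 0 higher in MN1, against 11.0% lower and 5.99% higher over all genes tested, at a median log2 fold change of -1.31. Cxcr2, which binds neutrophil-attracting chemokines and is also among the 12 neutrophil markers, had means of 17.4 ± 5.99 CPM (MN1) and 110 ± 48.1 CPM (MN1pQdel; SD, n = 3 each), with a log2 fold change of -2.67 (edgeR adjusted p = 0.0120). The complement C5a receptor genes C5ar1 (3.99-fold) and C5ar2 (6.07-fold) and the chemerin receptor gene Cmklr1 (5.58-fold) were lower, and Ccr1, Cxcr4 and S1pr4 were the other 3. The count was 1 without MN1pQdel replicate 1, 2 without MN1 replicate 2 and 3 without MN1 replicate 1. Lower calls over all genes shifted in these fits too, from 1627 of 14808 with all libraries. They were 3246 of 15252 without MN1pQdel replicate 2. With any other library left out they ran from 385 of 15210 to 683 of 15191. Leave-out counts of the lists below stand beside these totals.

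Of 13 further metabolite receptor genes 9 were tested, and 2 were lower (11.0% of all genes tested) and 0 higher, at a median log2 fold change of -0.38, and the lower count was 1 under library totals, RLE scaling, both other filters and DESeq2. These were Gpr55 (-2.53), a receptor of lysophosphatidylinositol, and Gpr18 (-1.37), whose levels were low at 0.228 CPM in MN1 and 0.587 CPM in MN1pQdel. The list counted 0 or 1 with any 1 library left out except MN1pQdel replicate 2. Of 17 further purine receptor genes 14 were tested, and 4 were lower (11.0% of all genes) and 0 higher, at a median of -1.17. With the replicate block and with DESeq2, P2rx3, named after its values were seen, was called higher, at log2 fold changes of 3.64 (edgeR adjusted p = 0.0352) and 2.89 (DESeq2 adjusted p = 0.00127). P2ry1, a receptor of ADP, averaged 21.9 ± 7.75 CPM (MN1) and 85.8 ± 56.0 CPM (MN1pQdel; SD, n = 3 each), with a log2 fold change of -1.99 (edgeR adjusted p = 0.0446). P2ry14 (-1.93), P2rx1 (-1.49) and P2ry13 (-1.48) were the other 3. The purine receptor count was 9 without MN1pQdel replicate 2 and 0 with any other library left out, and 1 with library totals alone. Over all genes, 3246 of 15252 were lower without MN1pQdel replicate 2, at most 683 with any other library left out, and 1120 of 14808 with library totals.

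Signal transduction below the receptors was lower in MN1 in 14 of 31 tested genes and higher in 0, against 11.0% and 5.99% of all genes tested, at a median log2 fold change of -0.55. Fgr, which encodes a Src-family kinase of phagocytes, averaged 19.2 ± 3.38 CPM (MN1) and 101 ± 21.9 CPM (MN1pQdel; SD, n = 3 each). Its log2 fold change was -2.41 (edgeR adjusted p = 0.00497). Pik3r5 (-1.76) and Pik3r6 (-1.53), the regulatory subunits of phosphoinositide 3-kinase gamma, were lower too. The list kept 8 or 9 lower genes without any 1 MN1 library. Genes that shut receptors off, namely receptor kinases, arrestins and RGS proteins, were lower in 8 of 15 tested (11.0% of all genes) and higher in 0, at a median of -0.98. Arrb2, which encodes beta-arrestin 2, averaged 115 ± 16.1 CPM (MN1) and 416 ± 122 CPM (MN1pQdel; SD, n = 3 each), with a log2 fold change of -1.87 (edgeR adjusted p = 0.00747). Rgs14 (-1.73) and Rgs3 (-1.68) were lower in log2 fold change, as was Rgs2, at 25.9 ± 4.12 CPM against 51.4 ± 13.2 CPM (SD, n = 3 each), and the list counted 5 without any 1 MN1 library.

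Genes for the making and breakdown of ligands were lower in 9 of 22 tested and higher in 1, against 11.0% and 5.99% of all genes, at a median log2 fold change of -0.86. Anxa1, whose product binds the Fpr2 receptor, averaged 131 ± 7.18 CPM (MN1) and 776 ± 215 CPM (MN1pQdel; SD, n = 3 each), with a log2 fold change of -2.58 (edgeR adjusted p = 0.00448). Camp, which encodes the cathelicidin that also binds it and is another of the 12 neutrophil markers, differed by -2.68, and Alox5ap, needed for leukotriene synthesis, by -2.07 on the log2 scale. Pla2g7, which breaks down platelet-activating factor, differed most, at 3.94 ± 1.37 CPM (MN1) and 58.0 ± 31.6 CPM (MN1pQdel; SD, n = 3 each), with a log2 fold change of -3.89 (edgeR adjusted p = 0.00918). The 1 higher gene was Dpp4, a peptidase gene, at a log2 fold change of 1.94, named after its value was seen. The higher count was 0 without MN1 replicate 1 or 3 or MN1pQdel replicate 1, 4 without MN1pQdel replicate 2, 2 with library totals and 3 with the block. Leave-outs of single libraries gave 3 to 13 lower genes, with 3 without MN1pQdel replicate 1, 5 without MN1 replicate 1 or 2 and 4 without MN1 replicate 3. Of 11 inflammasome genes downstream of P2rx7, 3 were lower (11.0% of all genes) and 0 higher, at a median of -0.45: Nek7 (-1.27), Pycard (-0.84) and Gsdmd (-0.69) in log2 fold change. That count was 1 without MN1 replicate 1, 2 or 3 or MN1pQdel replicate 1.

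**Figure D5:**
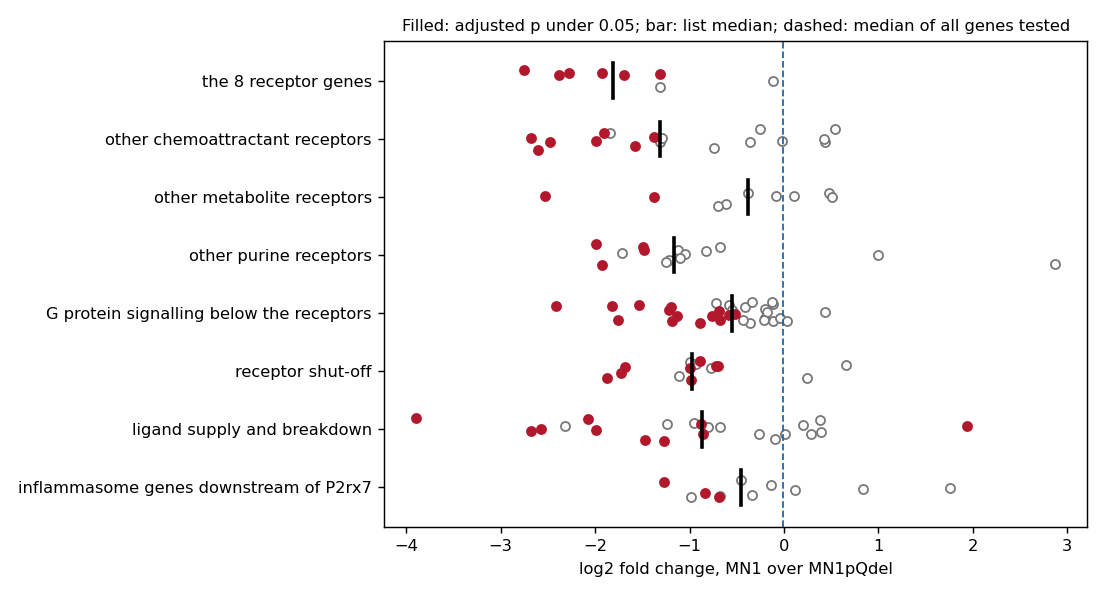
Log2 fold change of MN1 over MN1pQdel (horizontal axis) for each tested gene of the 8 receptors and of 7 related lists (rows), with filled points for adjusted p under 0.05, bars for list medians and a dashed line for the median of all genes tested (-0.01). The receptor genes have the lowest median (-1.81) of the lists drawn, and the 1 filled point to the right of 0 is Dpp4 (1.94). Receptors and lists were chosen with earlier results of these data known.

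Genes with a pattern most like each receptor were sought by Pearson's r of log2 CPM over the 7 libraries, among 9876 tested genes whose mean reached 5 CPM. The libraries fall into groups, so any gene that differs between the groups correlates, and r is given as a measure of likeness only. Closest to Fpr1 were Snx20 (0.990), Fam89b (0.989) and Cmklr1 (0.988). Closest to Fpr2 were Bcl6 (0.998), which encodes a transcriptional repressor, Fam89b (0.997) and Irak2 (0.996). Bcl6 stood at 1.95, 1.94 and 2.40 CPM in MN1, 20.2, 10.9 and 27.8 CPM in MN1pQdel and 38.5 CPM untransduced. Closest to Ffar2 were C3 (0.998), the gene of complement component 3, Naip2 (0.997) and Cebpe (0.996), a transcription factor of late granulocyte maturation. Cebpe stood at 37.4, 30.0 and 24.6 CPM in MN1, 121, 141 and 133 CPM in MN1pQdel and 125 CPM untransduced. That MN1pQdel and untransduced cells were level in it as in Ffar2 is built into its choice by r. Closest to Ptafr were Kri1 (0.995), Dctn5 (0.993) and Gpsm2 (0.992). Closest to Ltb4r1 were Cytip (0.995), Rmdn1 (0.994) and Stfa2l1 (0.992). Closest to Hcar2 were Chmp2a (0.997), Zyx (0.996) and Klra2 (0.995). Closest to P2rx7 were Iffo1 (0.999), Mllt6 (0.993) and Lacc1 (0.992), and closest to P2ry2 were Slc26a10 (0.986), Cox7a2 (0.968) and Col11a2 (0.960).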

How the data were processed

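Poly(A) RNA of 7 libraries was sequenced from both ends at 150 bases, per the labels' protocols. Estimated counts, 1 row per gene symbol and not normalised, were deposited by the authors as 1 table. The submitters' processing notes name GRCm38, kallisto and DESeq2, while the sources used here give no version, transcript index or strand setting. Of its values, 32.5% were not whole (tolerance 1e-06). No sample column was left unused.

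After rounding, filterByExpr of edgeR 4.0.16 (R 4.3.3), applied to the 6 transduced libraries, left 14808 of 34305 rows, which were scaled by TMM. The quasi-likelihood test with robust estimation was run on 3 MN1 against 3 MN1pQdel libraries, with Benjamini-Hochberg adjustment over all genes tested and a threshold of 0.05. SE is the size of the log2 fold change divided by the square root of F. CPM values use TMM over 7 libraries. The untransduced library was described by differences of log2 CPM (prior count of 2), over the same genes.

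Groups and replicate numbers came from the sample titles. Same-numbered libraries deviated together from their group means (r of 0.368, 0.259 and 0.320 across genes, against -0.282 to -0.0602 for other numbers). From the data alone the numbers were therefore taken to pair libraries, and a blocked fit was run. Replicates were distinct libraries, with 43.2 to 352 as chi-square per gene within groups. On simulated counts for MN1 against MN1pQdel (14644 genes tested) the fit without the block recovered 29% of the genes given a 1-unit log2 change. It recovered 74% of those given 2 units, and 9.65% of its calls were false. The simulated counts held no effect of replicate number, so these rates do not cover the pairing seen in the data. Alternatives were library totals, RLE scaling, other filters, DESeq2 1.42.0, the block, all 7 libraries in the fit, left-out libraries and, added later, no robust estimation.

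The members and lists were chosen with earlier results of these data known. The text names all 8 receptor genes, up to 4 passing genes of each list by absolute log2 fold change, and the 3 genes most like each receptor, leaving out predicted genes, Rik clones and accession-like names. For 1 gene that this rule selects, values are not reported here. Lists were: other chemoattractant, metabolite and purine receptors, signal transduction, receptor shut-off, ligand supply and breakdown, and inflammasome. Gene coordinates and exon lengths come from GENCODE M21 (GRCm38), matched by symbol. With no strand setting stated, reads of overlapping or antisense genes may be mixed.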

Additional observations from a re-analysis of the deposited data

Results flagged for a closer look

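Ffar2 lay on opposite sides of the untransduced library in the transduced groups: every MN1 library lay below it, at a mean log2 difference of -2.06, and every MN1pQdel library lay above it, at a mean of 0.204. The difference between these was not tested against the untransduced library, which is 1 library. The MN1pQdel values (0.06, 0.38 and 0.16 for replicates 1 to 3) lay close to it on the log2 scale, within 2-fold, and 1 library has no spread of its own, so no rise is shown.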

How the results depend on the processing

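Of 120 fold changes of the 8 receptor genes under alternatives, 108 kept their direction and their side of the threshold. The exceptions were calls of Fpr1, Ptafr and Hcar2 lost with single libraries left out, P2rx7 gained without MN1pQdel replicate 2 or without both number 2 libraries, and P2ry2, which reversed to 0.0744 with library totals. With single libraries left out, 3 to 7 receptor genes were lower. Over all genes, 88 to 3146 were then higher and 385 to 3246 lower. MN1pQdel replicate 2 gave the high ends when left out. Library totals gave 1791 higher genes, DESeq2 1906 higher and 2445 lower, the replicate block 2021 higher and 2518 lower, and leaving out both number 2 libraries 2604 higher and 2590 lower. The causes of these shifts were not tested. The block changed no call of the receptor genes. In MN1pQdel against the untransduced library, 1 to 4 receptor genes were at least 2-fold lower with single libraries left out, against 2 with all libraries. Metabolite receptor genes lower numbered 1 rather than 2 under library totals, RLE scaling, both other filters and DESeq2. Purine receptor genes lower numbered 1 with no filter, and 8 with DESeq2 or without both number 2 libraries, rather than 4. Without MN1pQdel replicate 2, 2 other chemoattractant, 1 metabolite and 2 purine receptor genes, 1 shut-off gene and 2 inflammasome genes were higher, against 0 in the edgeR fit reported. With all libraries kept, 1 purine receptor gene (P2rx3) was higher with the block and with DESeq2, and 1 inflammasome gene (Il1a) with DESeq2. The lowest estimated count of a receptor gene in a library was 266.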

Other observations

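Several genes outside the chosen 8, named after their values were seen, had MN1pQdel replicate 2 near the MN1 libraries, as P2rx7 did. P2rx4, which encodes another ATP-gated channel and lies beside P2rx7, stood at 58.6, 42.8 and 69.2 CPM in MN1, 167, 46.1 and 179 CPM in MN1pQdel and 178 CPM untransduced (log2 fold change -1.21, edgeR adjusted p = 0.119). C3ar1, the complement C3a receptor gene, stood at 16.9, 10.9 and 34.4 CPM in MN1, 69.8, 23.8 and 126 CPM in MN1pQdel and 105 CPM untransduced (log2 fold change -1.84, edgeR adjusted p = 0.0932). Alox5, the gene of the enzyme that starts leukotriene synthesis, had 754, 305 and 594 CPM in MN1 and 1647, 511 and 1698 CPM in MN1pQdel (log2 fold change -1.24, edgeR adjusted p = 0.128).

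P2rx3, an ATP-gated channel gene known from sensory neurons, ran the other way. It stood at 35.2, 34.0 and 32.4 CPM in MN1, at 1.82, 11.1 and 0.845 CPM in MN1pQdel and at 1.53 CPM untransduced. The groups did not overlap, and MN1pQdel replicate 2 was again the library nearest to MN1. The log2 fold change was 2.87 (SE 0.88, edgeR adjusted p = 0.0652), which did not pass, while the replicate block gave 3.64 (edgeR adjusted p = 0.0352), which did. Ccr2, a chemokine receptor gene of monocytes, did not pass either, at 119 ± 12.5 CPM in MN1 and 87.5 ± 46.5 CPM in MN1pQdel (SD, n = 3 each).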
